A study of Mus musculus with 12 samples.

Results

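The enzyme genes Ido1, Ido2, Kmo, Kynu, Il4i1, Arg1, Arg2, Aldh1a1 and Aldh1a2 were followed across mouse type 1 conventional dendritic cells (cDC1), which excel at presenting captured antigen to CD8 T cells. They were taken as a list of 9 genes whose products act on tryptophan, kynurenine or arginine, or make retinoic acid. Each was read from its brightest probe set that carries a single gene symbol. This gave values for 8 of the 9 genes, among 19938 genes tested in all. The listed probe set for Il4i1 carries 2 symbols, so no value is given for it. The 12 arrays, of the type Affymetrix Mouse Gene 1.0 ST, fell into 4 groups of 3: migratory cDC1 of skin-draining lymph nodes labelled Cre, the same cells labelled control, spleen cDC1 labelled Cre, and spleen cDC1 labelled control.

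All mice were naive, on a C57BL/6 background, and carried loxP-flanked Cd40 on both alleles (CD40 fl/fl). Those called Cre here were Xcr1 Cre/+, with a Cre recombinase driven from the Xcr1 locus and meant to delete Cd40 in cDC1, and those called control were Xcr1+/+. Age, and whether animals were pooled, are not given in the sources used here. The sort took B220- Sirpa- XCR1+ cells with high MHC class II, and with intermediate CD11c in lymph node and high CD11c in spleen. The comparison the study was built for is that of resting cDC1 that have or lack CD40, a receptor by which helper T cells activate dendritic cells. The labels do not tell whether replicates are separate animals, so the p-values speak only of the spread between these arrays, which may be technical, and the number of arrays limits the precision.

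Dendritic cells can restrain T cells by changing the small molecules around them. Ido1 and Ido2 open the tryptophan ring in the rate-limiting step of the kynurenine pathway, and Kmo and Kynu carry kynurenine on toward quinolinic acid and NAD, while Il4i1 oxidises aromatic amino acids on a separate route. Arg1 (cytosolic) and Arg2 (mitochondrial) split arginine into ornithine and urea, which competes with nitric oxide synthesis and feeds the making of polyamines. Aldh1a1 and Aldh1a2 oxidise retinal to retinoic acid, which in gut dendritic cells is known for inducing regulatory T cells and gut-homing receptors.

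Most markers of mature migratory dendritic cells were higher in lymph node than in spleen, and most cDC1 identity genes were lower there. Xcr1, the sort marker, had 224, 267 and 236 in lymph node Cre and 203, 286 and 263 in lymph node control arrays, against 1945, 3406 and 3387 in spleen Cre and 2827, 3508 and 3417 in spleen control arrays. That is 11.7-fold lower in lymph node on Cre and 13.0-fold lower on control arrays (limma adjusted p = 3.81e-08 and 2.51e-08). Of 13 cDC1 identity genes, 8 were called lower under each label, against 15.2% and 13.2% of all genes. Called higher were 3 on Cre and 2 on control arrays, against 13.1% and 12.9% of all genes. Id2 (log2 differences 0.89 on Cre and 0.65 on control arrays) and Batf3 (0.56 and 0.71) were among them under both labels. The summed intensity of 13 cDC1 identity genes was 20461 to 21374 in lymph node Cre and 19884 to 22506 in lymph node control arrays, against 40749 to 52804 in spleen Cre and 42594 to 52418 in spleen control arrays. That of 11 genes of mature migratory dendritic cells was 39142 to 52371 and 41423 to 54684 in the lymph node groups, against 7752 to 10045 and 11050.4 to 11392 in the spleen groups, in the same order of labels. Of these, 10 were called higher under each label, against 13.1% and 12.9% of all genes. Cd83 was not called (log2 differences -0.063 on Cre and -0.30 on control arrays). Macrophage and monocyte markers (11 genes) summed to 1120.4 to 1335 and 1205 to 1362 in lymph node, against 2519 to 4310.0 and 2614 to 4293 in spleen. Of these, Cd14 and Lyz2 were called lower and Vcam1 higher in lymph node under both labels. T and NK cell markers (8 genes) summed to 766 to 1632 and 889 to 1402 in lymph node, against 758 to 917 and 843 to 947 in spleen. Of these, Cd3g, Cd3d and Cd3e were called higher and Cd5 lower in lymph node under both labels. B cell markers (7 genes) summed to 318 to 407 and 290.2 to 370 in lymph node, against 1049 to 1267 and 784 to 1412 in spleen. Of these, 3 were called lower in lymph node under each label (Fcrla, Ms4a1 and Cd22), against 15.2% and 13.2% of all genes. The rest, Cd79a, Cd79b and Ebf1 among them, were not called. Fcrla, at averages of 606 and 578 in spleen Cre and control arrays, was a large part of the spleen sums. Among markers of other dendritic cells, Epcam and Tcf4 were called higher and Ccr9 lower in lymph node under both labels. Of the skin cell markers, Perp and Krt14 were called higher and Cd207 lower under both labels. That skin list (7 genes) summed to 512 to 724 and 522 to 537 in lymph node, against 579 to 809 and 522 to 816 in spleen. The part of such cells in the results below was not tested. Cd40, the targeted gene, did not follow the labels: the ratio of the Cre to the control array with the same number was 0.668, 0.500 and 2.18 among lymph node arrays, and 0.638, 0.407 and 1.84 among spleen arrays, on replicates 1, 2 and 3. Probe positions were not used here, and a probe that lies outside the deleted exons checks nothing, so Cre and control are given below only as the labels of arrays, and whether those of replicate 3 are crossed was not tested.

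A pair of reference levels helps in reading the intensities, which are on a linear scale and cannot be compared between genes. Xist, which female cells express, was at 2522 to 3721 on all 12 arrays, and the highest of 3 Y-linked genes gave 22.2. The 95th percentile of 1027 olfactory receptor genes, which immune cells should hardly express, was 55.4, a level added after the values had been seen. Array medians lay between 66.1 and 74.4.

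Between tissues, the largest differences among these enzymes were in Kmo, which was far lower in migratory lymph node cDC1 than in spleen cDC1, and in Arg2, which was several-fold higher in lymph node. Kynu was lower in lymph node by 2.15-fold on arrays labelled Cre and by 2.06-fold on those labelled control. Ido1 was lower, and Ido2 and Aldh1a2 higher, in lymph node by at most 1.60-fold. These 3 passed the test on the arrays labelled Cre but not on those labelled control, and the difference between the labels was itself not called for any of them (log2 -0.26 for Ido1, 0.26 for Ido2 and 0.27 for Aldh1a2). Arg1 and Aldh1a1 lay below the olfactory level (55.4) and above the highest Y-linked value (22.2) on all 12 arrays. The threshold for a call was a limma adjusted p under 0.05 (two-sided, Benjamini-Hochberg over all genes). On arrays labelled Cre, 6 of the 8 enzymes were called (3 higher and 3 lower), against 28.3% of all genes (13.1% higher and 15.2% lower). On arrays labelled control, 3 of 8 were called (1 higher and 2 lower), against 26.1% of all genes (12.9% higher and 13.2% lower). The median log2 difference over the 8 enzymes was 0.18 on Cre and -0.032 on control arrays, beside 0.066 and 0.027 over all genes. Whether a lower level reflects fewer cells with the transcript or less RNA per cell cannot be told apart in sorted pools.

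**Figure D1:**
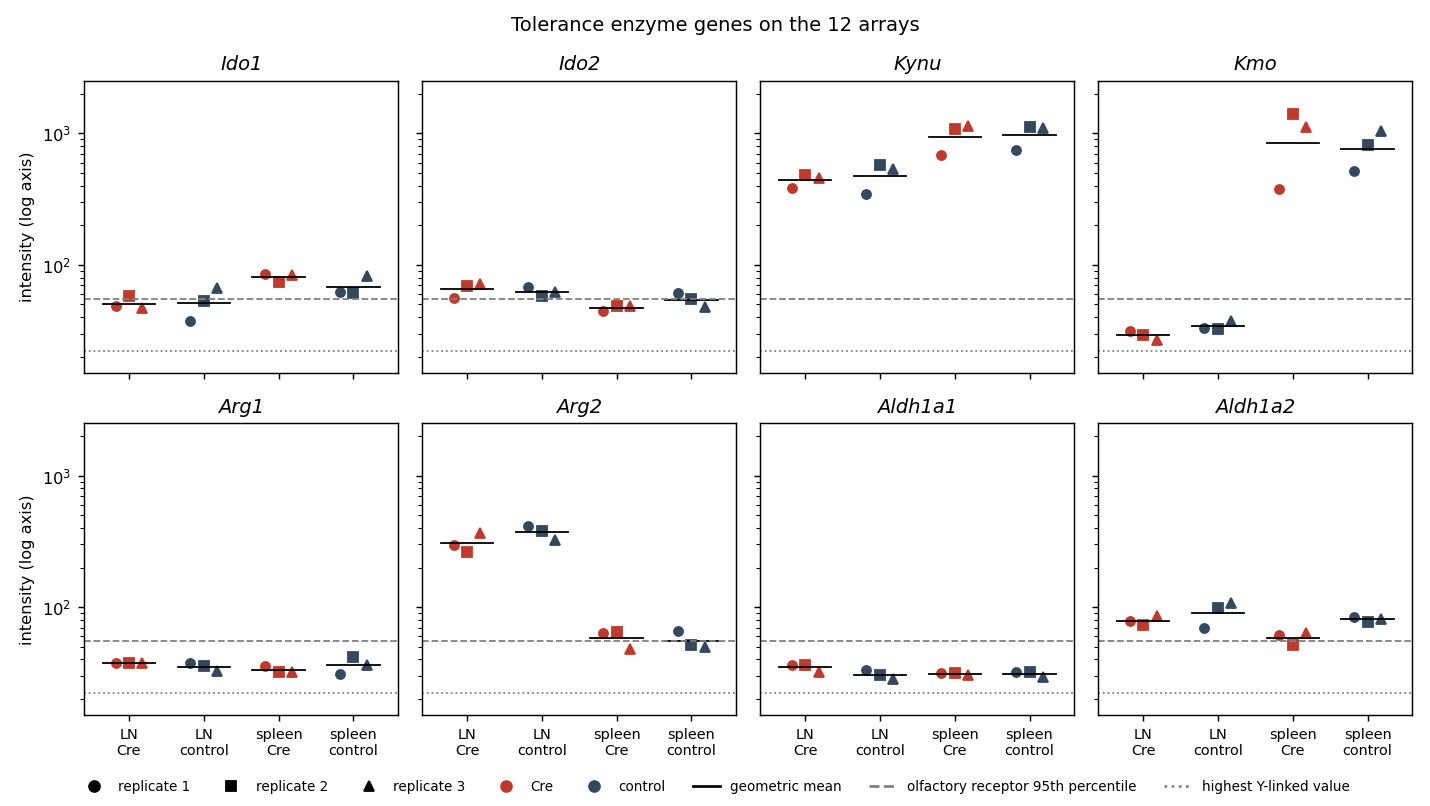
Intensity of the 8 measured enzyme genes (log axis) on each of the 12 arrays, by group, with the geometric mean of each group as a bar, the 95th percentile of olfactory receptor genes (55.4) as a dashed line and the highest Y-linked value (22.2) as a dotted line. Kmo drops below the dashed line on all 6 lymph node arrays, Arg2 lies far above it there, and Arg1 and Aldh1a1 stay below it on all 12 arrays.

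Kmo (probe set 10352000, chromosome 1) encodes kynurenine 3-monooxygenase, a mitochondrial outer membrane flavoenzyme that turns kynurenine into 3-hydroxykynurenine. Its promoter is shown because the gene carried the largest tissue difference of the list, and that of Aldh1a2 because it is the only listed gene whose groups did not overlap between the labels in spleen. Both are RefSeq windows on GRCm38.p6, plus strand, from 250 bases before to 50 after the start site (chr1:175631943-175632242 for Kmo and chr9:71215539-71215838 for Aldh1a2), printed in lower case with the letters of the PU.1 motif in capitals.
Kmo: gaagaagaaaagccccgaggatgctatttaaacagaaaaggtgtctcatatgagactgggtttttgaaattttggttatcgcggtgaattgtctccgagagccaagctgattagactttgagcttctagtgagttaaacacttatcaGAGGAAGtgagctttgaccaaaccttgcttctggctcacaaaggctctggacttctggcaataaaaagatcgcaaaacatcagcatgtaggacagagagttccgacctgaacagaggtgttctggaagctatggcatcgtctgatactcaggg
Aldh1a2: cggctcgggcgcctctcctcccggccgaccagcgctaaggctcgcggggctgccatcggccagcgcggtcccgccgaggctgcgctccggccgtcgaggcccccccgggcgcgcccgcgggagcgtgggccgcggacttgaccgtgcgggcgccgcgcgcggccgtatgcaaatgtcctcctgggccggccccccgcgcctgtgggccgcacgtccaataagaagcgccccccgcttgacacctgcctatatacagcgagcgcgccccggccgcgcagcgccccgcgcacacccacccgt
The RefSeq table held promoters for 4 of the 9 genes, 5 windows in all because Aldh1a1 has more than 1. Of 7 motifs searched on both strands, the Kmo window held 1 match, GAGGAAG, the core letters bound by the myeloid factor PU.1, on the plus strand at position -103 from the start site. The Aldh1a2 window, with 78% G and C beside a median of 52.7% over all 32851 promoters and 44.3% in Kmo, held none of the 7. The shares of all promoters with a match were 13.6% for GAGGAAG, 16.3% for the retinoic acid receptor half-site AGGTCA, 8.56% for the IRF letters GAAANNGAA, 8.30% for STAT (TTCNNNGAA), 7.81% for AP-1 (TGANTCA), 5.82% for NF-kB (GGGNNTTCC) and 5.07% for AhR (TNGCGTG). A match is a description of letters, and a window without one says nothing about binding.

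The intensity of Kmo was 31.4, 29.4 and 26.9 in lymph node Cre arrays, against 379, 1412 and 1111 in spleen Cre arrays (replicates 1, 2 and 3). It was 33.3, 32.3 and 37.4 in lymph node control arrays, against 513, 809 and 1035 in spleen control arrays. Every lymph node array lay below every spleen array, and within spleen the replicate 1 array was the lowest under both labels. The log2 difference was -4.85 on Cre arrays (SE 0.37, n = 3 per group, limma adjusted p = 3.09e-07), a 28.8-fold lower level in lymph node (95% interval 16.5 to 50.4). On control arrays it was -4.46 (SE 0.37, n = 3 per group, limma adjusted p = 7.10e-07), or 22.0-fold lower (12.6 to 38.5). Its lymph node values all lay below the olfactory level. With that level in their place, the estimate was 15.2-fold lower on Cre and 13.6-fold lower on control arrays. These are ratios of means without an interval, not lower limits.

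The macrophage genes Cd14 and Lyz2 differed between tissues in the same direction as Kmo. Vcam1, of the same list, differed in the other direction (log2 differences 1.29 on Cre and 1.04 on control arrays). Cd14, a coreceptor for lipopolysaccharide, averaged 116 ± 65.8 in lymph node Cre and 87.7 ± 14.1 in lymph node control arrays, against 1512 ± 787 in spleen Cre and 1385 ± 762 in spleen control arrays (SD, n = 3 each). C1qa, a complement gene of tissue macrophages, had 62.0 to 70.7 in lymph node Cre and 60.7 to 75.2 in lymph node control arrays, against 54.8 to 63.7 in spleen Cre and 56.9 to 70.1 in spleen control arrays, so that marker was near the olfactory level in both tissues. The spleen level of Kmo was not tested against these markers.

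Kynu (probe set 10471912, chromosome 2), kynureninase, cleaves kynurenine and 3-hydroxykynurenine to anthranilic acids. It had 387, 478 and 455 in lymph node Cre arrays, against 680.2, 1081 and 1129.7 in spleen Cre arrays. In lymph node control arrays it had 344, 575 and 534, against 752, 1124.7 and 1089.7 in spleen control arrays. The tissues did not overlap under either label, and replicate 1 was the lowest array in each of the 4 groups. Relative to the mean of replicates 2 and 3, its log2 deviation was -0.27 in lymph node Cre, -0.69 in lymph node control, -0.70 in spleen Cre and -0.56 in spleen control arrays. Lymph node cells had 2.15-fold less Kynu on Cre arrays (95% interval 1.49 to 3.09, log2 difference -1.10, SE 0.24, limma adjusted p = 0.00330) and 2.06-fold less on control arrays (1.43 to 2.96, log2 difference -1.04, SE 0.24, limma adjusted p = 0.00499). Without replicate 3 in any group, neither passed (limma adjusted p = 0.0941 on Cre and 0.0858 on control arrays), and without replicate 2 the Cre difference did not (0.0533).

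Ido1 (probe set 10577655) and Ido2 (probe set 10577645) are neighbours on chromosome 8, with 0 protein-coding genes between them in RefSeq, and they differed between tissues in opposite directions. Ido1, the interferon-inducible enzyme of the pair, had 48.6, 57.5 and 46.5 in lymph node Cre arrays, against 85.8, 74.2 and 83.0 in spleen Cre arrays. In lymph node control arrays it had 37.4, 53.4 and 66.6, against 62.4, 61.5 and 81.6 in spleen control arrays. The Cre groups did not overlap, and the control groups did through lymph node replicate 3. Its log2 difference was -0.67 on Cre arrays (SE 0.18, limma adjusted p = 0.0114, 1.60-fold lower) and -0.41 on control arrays (SE 0.18, limma adjusted p = 0.125). Without lymph node control replicate 3 the control difference was called too (limma adjusted p = 0.0211), and without replicate 3 in any group the Cre difference was not (0.0581). All of these values were modest: 2 of 3 lymph node arrays under each label lay below the olfactory level.

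Ido2, the paralogue with lower activity toward tryptophan, had 56.1, 69.1 and 71.9 in lymph node Cre arrays, against 44.8, 48.7 and 48.3 in spleen Cre arrays. It had 68.4, 58.3 and 61.6 in lymph node control arrays, against 60.8, 54.7 and 47.5 in spleen control arrays. Cre groups were apart and control groups overlapped. The log2 difference was 0.47 on Cre arrays (SE 0.12, limma adjusted p = 0.00893) and 0.21 on control arrays (SE 0.12, limma adjusted p = 0.258). All 3 spleen Cre arrays lay below the olfactory level. With that level in their place, the Cre estimate for Ido2 was 1.18-fold higher in lymph node. This is a ratio of means without an interval, not a lower limit. The Cre call of Ido2 was lost without replicate 2 (limma adjusted p = 0.144) or replicate 3 (0.105) in all groups.

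**Figure D2:**
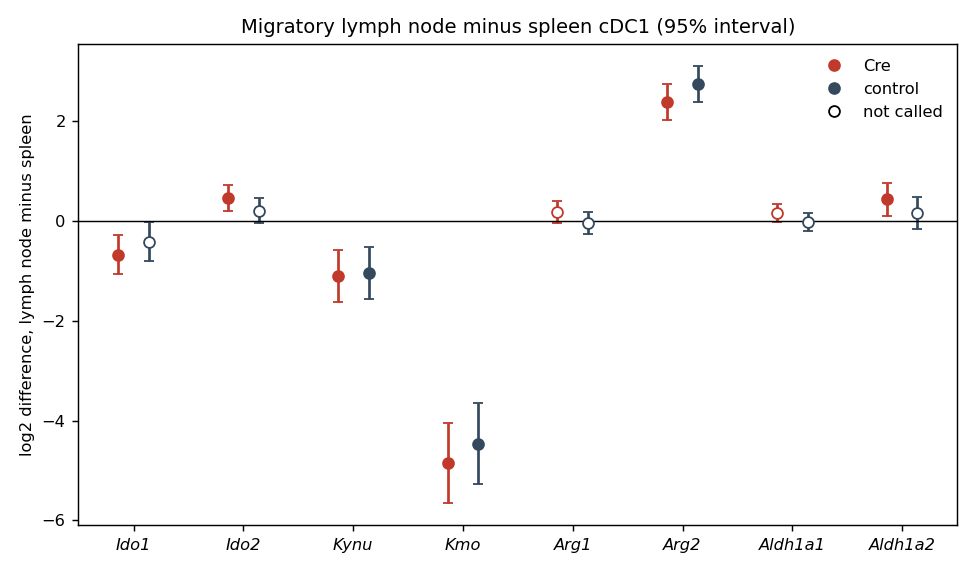
Log2 difference of each measured enzyme gene, lymph node minus spleen, for arrays labelled Cre (red) and control (blue), with the 95% interval from limma and open points where the gene was not called (n = 3 arrays per group). Kmo sits at -4.85 and -4.46 and Arg2 at 2.39 and 2.75, while the other genes lie between -1.10 and 0.47.

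Arg2 (probe set 10396831, chromosome 12) showed the main rise of the list. The mitochondrial arginase had 297, 265 and 364 in lymph node Cre arrays, against 63.2, 64.8 and 48.2 in spleen Cre arrays. It had 416, 381 and 324 in lymph node control arrays, against 66.3, 51.5 and 49.7 in spleen control arrays. Each lymph node array exceeded each spleen array, and 3 of the 6 spleen arrays lay below the olfactory level. The level was 5.25-fold higher in lymph node on Cre arrays (95% interval 4.07 to 6.77, log2 difference 2.39, SE 0.17, limma adjusted p = 1.53e-07) and 6.72-fold higher on control arrays (5.21 to 8.66, log2 difference 2.75, SE 0.17, limma adjusted p = 4.48e-08). Among all rises it stood at place 187 on Cre arrays and at place 122 on control arrays.

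Arg1 (probe set 10368343, chromosome 10), the arginase of liver and of alternatively activated macrophages, was not called between the tissues. Its intensity was 37.9, 37.8 and 37.8 in lymph node Cre arrays, against 35.9, 31.9 and 32.2 in spleen Cre arrays. In lymph node control arrays it was 37.3, 35.7 and 32.7, against 30.9, 41.8 and 36.5 in spleen control arrays. All 12 values lay below the olfactory level, the Cre groups were apart and the control groups overlapped, and limma adjusted p-values were 0.226 on Cre and 0.878 on control arrays. Of the arginase genes, Arg2 alone exceeded that level on all 6 lymph node arrays.

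Aldh1a2 (probe set 10586865, chromosome 9), the retinal dehydrogenase of gut-type dendritic cells, was low in every group. It had 78.9, 73.4 and 85.6 in lymph node Cre arrays, against 61.0, 51.8 and 63.6 in spleen Cre arrays. It had 69.3, 99.4 and 108 in lymph node control arrays, against 84.5, 77.6 and 81.1 in spleen control arrays. The spleen Cre arrays lay below the other 9, whose groups overlapped each other. The log2 difference between tissues was 0.43 on Cre arrays (SE 0.15, limma adjusted p = 0.0442, 1.35-fold higher) and 0.16 on control arrays (SE 0.15, limma adjusted p = 0.549). The Cre call was lost when any of 10 of the 12 arrays was left out (limma adjusted p = 0.0513 to 0.181). The control difference was called in 2 of 15 settings with arrays left out (lowest limma adjusted p = 0.0349). Among them was the setting without lymph node control replicate 1 (limma adjusted p = 0.0446).

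Aldh1a1 (probe set 10461979, chromosome 19), the retinal dehydrogenase of liver and other epithelia, had 36.1, 36.6 and 32.3 in lymph node Cre arrays, against 31.4, 31.4 and 30.7 in spleen Cre arrays. It had 33.0, 30.7 and 28.4 in lymph node control arrays, against 32.1, 32.1 and 29.5 in spleen control arrays. The range over the 12 arrays stayed under the olfactory level, and limma adjusted p-values were 0.174 on Cre and 0.894 on control arrays. On Cre arrays the tissues did not overlap for any of the 8 enzymes, Arg1 and Aldh1a1 included, against 41.1% of all genes (5 higher in lymph node, against 22.4%, and 3 lower, against 18.7%). On control arrays they did not overlap for 3 of 8, against 36.3% of all genes (Arg2 higher, against 19%, and Kmo and Kynu lower, against 17.3%).

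The order of the group levels differed between the genes. Kmo averaged 29.2 ± 2.26 in lymph node Cre and 34.3 ± 2.69 in lymph node control arrays, against 967 ± 532 in spleen Cre and 786 ± 262 in spleen control arrays (SD, n = 3 each, here and below), and the spleen groups differed by less than their spread. Kynu averaged 440.1 ± 47.7 and 484 ± 123.4 in lymph node Cre and control arrays, against 964 ± 247 and 989 ± 206 in spleen Cre and control arrays, with each pair of labels within its spread. Arg2 averaged 308 ± 50.6 in lymph node Cre and 374 ± 46.4 in lymph node control arrays, against 58.7 ± 9.18 and 55.8 ± 9.10 in spleen Cre and control arrays. For Aldh1a2, lymph node control (92.2 ± 20.4), spleen control (81.1 ± 3.47) and lymph node Cre (79.3 ± 6.11) were neighbours within their spread, and spleen Cre (58.8 ± 6.19) came last.

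By pattern over the 12 arrays, measured as the mean absolute difference between log2 values centred on each gene's own mean, the genes most like Kmo were Treml4 (0.24), Tifab (0.24) and Havcr2 (0.26), the last encoding the receptor TIM-3. The genes most like Arg2 were Plcl1 (0.15), Hmgn3 (0.16) and Arhgap8 (0.16). For Kynu they were Nup153 (0.042), a nuclear pore gene, Sec63 (0.083) and Uso1 (0.084), and for Aldh1a2 they were Grid1 (0.12), Ror1 (0.13) and Zbtb46 (0.13), the last a transcription factor of conventional dendritic cells. Prr3, Nxt2 and Rab32 (0.10 to 0.11) were most like Ido1, and Ttbk1, Rdh1 and Grin2d (0.066 to 0.070) most like Ido2.

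Called genes of the rest of the kynurenine and NAD pathway were about as frequent as among all genes. Of 15 measured, 3 were called higher and 1 lower in lymph node on Cre arrays, and 3 higher and 2 lower on control arrays, against 28.3% and 26.1% of all genes called. Nmnat1, which completes NAD in the nucleus, had 368 to 486 in lymph node Cre and 374 to 544 in lymph node control arrays, against 142 to 159 in spleen Cre and 111 to 149 in spleen control arrays (log2 differences 1.55 and 1.76). Naprt, which starts NAD synthesis from nicotinic acid, was at 1.04 on Cre and 1.07 on control arrays, and the mitochondrial Nmnat3 at 0.88 and 0.62. Haao, the step of the pathway after Kmo and Kynu, was lower in lymph node by log2 differences of -0.76 on Cre and -0.71 on control arrays. Kyat3, a kynurenine aminotransferase, was called lower on control arrays (-0.45), and is named because it completes that count.

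Of 10 measured genes that bring in and sense tryptophan, 1 was called higher and 3 lower in lymph node under each label, against 13.1% higher and 15.2% lower of all genes on Cre arrays and 12.9% and 13.2% on control arrays. Wars, the tryptophanyl-tRNA synthetase, was higher at log2 differences of 1.42 on Cre and 1.61 on control arrays. The amino acid transporters Slc7a8 (-2.37 and -2.10) and Slc7a5 (-1.21 and -0.78) and the amino acid sensing kinase Eif2ak4, also called GCN2 (-1.07 and -1.21), were lower. Among 9 measured genes of the aryl hydrocarbon receptor pathway, through which kynurenine can act, 2 were called lower under each label, against 15.2% and 13.2% of all genes. Ahr itself averaged 449 ± 32.4 and 446 ± 54.3 in lymph node Cre and control arrays, against 3963 ± 1025 and 4212 ± 1128 in spleen Cre and control arrays (log2 differences -3.11 and -3.21), and its target Tiparp was at -1.78 and -1.89. The AhR repressor gene Ahrr was called higher on control arrays (0.39) and not called on Cre arrays (0.28), and is named because it is the single rise in that list.

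Around the arginases, called genes of arginine metabolism were about as frequent as among all genes. Of 17 measured genes of arginine, nitric oxide and the urea cycle, 1 was called higher and 4 lower on Cre arrays, and 1 higher and 3 lower on control arrays, against 28.3% and 26.1% of all genes called. Gatm, which uses arginine to start creatine synthesis, averaged 64.4 ± 1.87 and 67.1 ± 2.66 in lymph node Cre and control arrays, against 1206 ± 186 and 1030.0 ± 110.0 in spleen Cre and control arrays (log2 differences -4.22 and -3.94). The arginine transporter Slc7a1 (-1.61 and -1.84) and the creatine enzyme Gamt (-0.67 and -0.85) were lower, and Asl, which makes arginine from argininosuccinate, was higher (1.06 and 1.42). Nos2, the inducible nitric oxide synthase, had log2 differences of -0.12 and 0.10 and was not called. In the list of ornithine and polyamine genes, 7 of 13 measured were called lower and 1 higher on Cre arrays, and 6 lower and 2 higher on control arrays, against 15.2% and 13.2% of all genes called lower, with medians of -0.53 and -0.45. Srm, spermidine synthase, was at -2.33 on Cre and -2.62 on control arrays. Odc1, ornithine decarboxylase and the entry to polyamines, averaged 1147 ± 348 and 1030.4 ± 172 in lymph node Cre and control arrays, against 3153 ± 116 and 3352 ± 494 in spleen Cre and control arrays. Dohh (-2.02 and -1.39), which completes the hypusine of eIF5A, and Aldh18a1 (-1.70 and -1.16), which makes ornithine and proline precursors, were lower as well, and the antizyme inhibitor Azin2 (0.59 and 0.75) was higher.

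Of 25 measured genes of retinoic acid synthesis and breakdown, 3 were called higher and 2 lower on Cre arrays and 2 higher and 2 lower on control arrays, against 28.3% and 26.1% of all genes called. The retinol dehydrogenases Rdh5 (log2 differences 0.79 on Cre and 1.05 on control arrays) and Dhrs4 (0.54 and 0.48) were higher, and Dgat1 (-0.78 and -0.84), which can esterify retinol, and the carotenoid oxygenase Bco2 (-0.54 and -0.53) were lower. Of 20 measured genes of transport and receptors, 3 were called higher and 5 lower on Cre arrays and 2 higher and 5 lower on control arrays, against 28.3% and 26.1% of all genes called. Fabp5, a fatty acid binding protein that can carry retinoic acid, averaged 1069 ± 157 and 915 ± 129.9 in lymph node Cre and control arrays, against 98.0 ± 17.1 and 108 ± 35.9 in spleen Cre and control arrays. Asb2, a gene known as retinoic acid inducible in leukaemia cells, was lower (-3.24 and -3.15), as were the retinol transporter relative Stra6l (-1.91 and -1.96), Tgm2 (-0.76 and -1.26) and the receptor gene Rara (-0.55 and -0.60). Another receptor gene, Rarg, was higher (0.46 and 0.41). Among 14 measured other aldehyde dehydrogenases, 4 were called lower on Cre and 3 on control arrays, against 15.2% and 13.2% of all genes, and 0 were called higher under either label. Aldh3b1 was at -2.35 and -2.23, Aldh2 at -2.11 and -1.98 and Aldh1b1 at -0.73 and -0.47.

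Known inducers of these enzymes differed in both directions. Of 25 measured Ido1 inducers and regulators, 8 were called higher and 10 lower under each label, against 28.3% and 26.1% of all genes called. Irf1, the interferon response factor that can drive Ido1, averaged 1762 ± 499 and 1961 ± 394 in lymph node Cre and control arrays, against 246 ± 42.6 and 264 ± 11.2 in spleen Cre and control arrays. Ptgs2, the prostaglandin synthase COX-2, was higher at log2 differences of 3.33 on Cre and 3.75 on control arrays, Relb at 2.55 and 2.35, and the prostaglandin receptor Ptger4 at 1.26 and 1.02. Ifngr1, the interferon-gamma receptor chain upstream of Irf1, averaged 417 ± 39.2 and 417 ± 84.1 in lymph node Cre and control arrays, against 5224 ± 1708 and 4831 ± 1602 in spleen Cre and control arrays. Tgfb1 (-2.45 and -2.63), Tgfbr2 (-1.49 and -1.38) and Inpp5d (-2.04 and -1.95), the phosphatase SHIP1, were lower. Of 21 measured inducers of Aldh1a2 and Arg1, 5 were called higher and 5 lower on Cre arrays and 7 higher and 6 lower on control arrays, against 28.3% and 26.1% of all genes called. The interleukin-4 and interleukin-13 receptor genes Il4ra (1.41 and 1.39) and Il13ra1 (1.32 and 1.67), Irf4 (1.55 and 1.21) and Stat5a (1.19 and 1.26) were higher, while Mapk14 (-3.15 and -3.23), Lrp5 (-1.35 and -0.97), Pparg (-0.86 and -1.09) and Klf4 (-0.62 and -0.71) were lower.

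**Figure D3:**
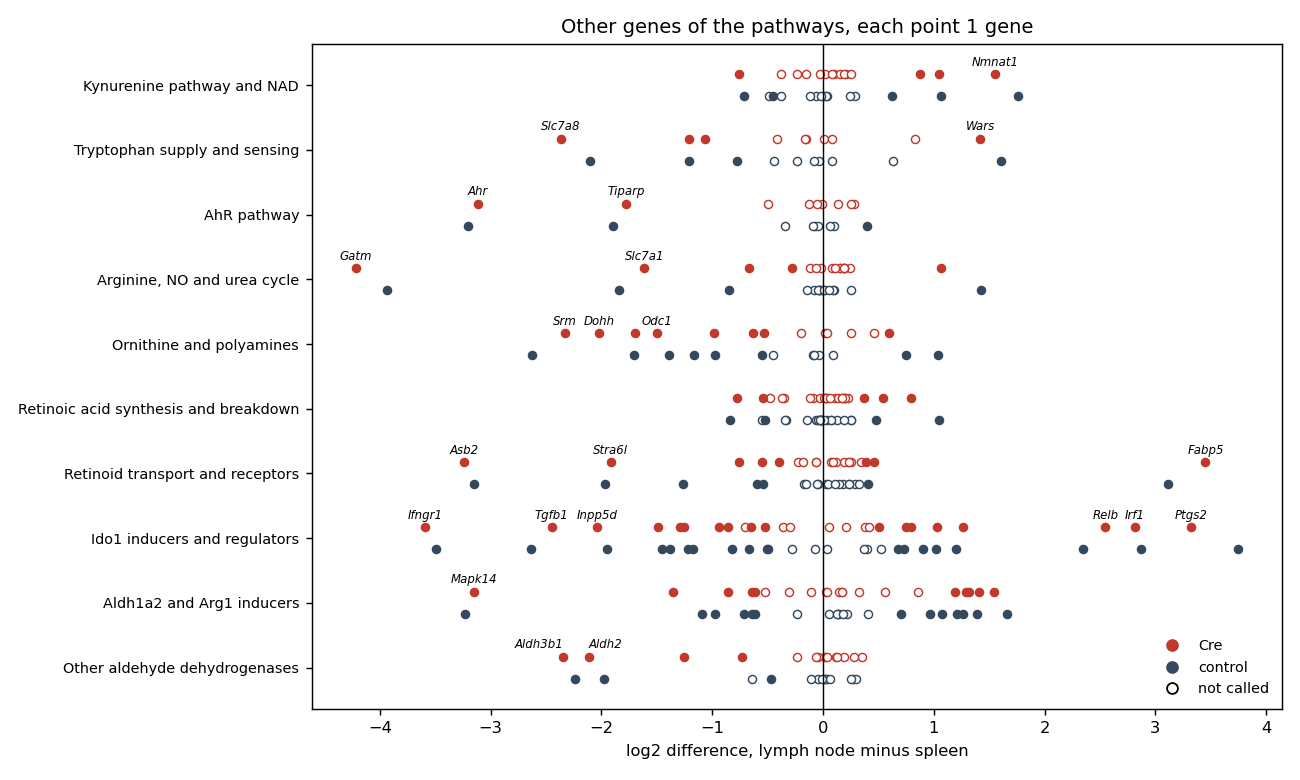
Log2 difference, lymph node minus spleen, of each measured gene in 10 lists around the enzymes, with arrays labelled Cre in red above arrays labelled control in blue and open points for genes not called. Called genes of the ornithine and polyamine list lie mostly left of 0 (7 of 13 lower on Cre arrays), and the Ido1 inducers spread to both sides (8 higher and 10 lower).

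Between the labels, none of the 8 enzymes passed the test in either tissue. In lymph node and in spleen, 0 of 8 were called, as were 0% of all genes by limma. At an unadjusted limma p under 0.05, 1 enzyme passed in lymph node, against 2.02% of all genes, and 1 in spleen, against 1.79% of all genes. With the replicate number as a block the same enzymes passed that threshold, beside 1360 genes in lymph node, against 402 without the block, and 886 in spleen, against 357. The nearest was Aldh1a2 in spleen, with 61.0, 51.8 and 63.6 on Cre arrays, against 84.5, 77.6 and 81.1 on control arrays. The groups did not overlap, and the Cre array was the lower in each of the 3 pairs of replicate numbers, at ratios of 0.722, 0.668 and 0.784. The log2 difference was -0.47 (SE 0.15, 95% interval -0.79 to -0.14, n = 3 per group, limma adjusted p = 1). It was the single enzyme of the 8 whose spleen groups did not overlap, against 7.64% of all genes (1 lower, against 4.96%, and 0 higher, against 2.68%).

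In lymph node, Aldh1a2 was within the spread of its groups, with a log2 difference of -0.19 (95% interval -0.52 to 0.13) and pair ratios of 1.14, 0.739 and 0.793. Averaged over both tissues its log2 difference was -0.33 (SE 0.11, limma adjusted p = 1), where 1 of 8 enzymes had an unadjusted p under 0.05, against 1.92% of all genes, and 0% of all genes were called. The difference of the label effect between tissues was 0.27 for Aldh1a2 (95% interval -0.18 to 0.73), and 0 of 8 enzymes had an unadjusted limma p under 0.05 for it, against 1.64% of all genes. The direction of these differences rests on the labels, with which Cd40 was at odds on replicate 3. Without replicate 3 in any group the Aldh1a2 difference in spleen was -0.53 on the log2 scale (limma adjusted p = 1).

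The lymph node enzyme with an unadjusted p under 0.05 was Aldh1a1, at a log2 difference of 0.19 (SE 0.084, limma adjusted p = 1), with all its values below the olfactory level. Kmo (lower on Cre arrays) and Arg1 (higher) had lymph node groups that did not overlap, 2 of 8 enzymes against 4.72% of all genes (1 lower, against 2.71%, and 1 higher, against 2.01%), again with all 12 of those lymph node values below the olfactory level. Arg2, the arginase with signal in lymph node, had a log2 difference of -0.28 there (95% interval -0.65 to 0.084), and Cre arrays were lower in 2 of 3 pairs. For Kynu the label difference was -0.11 in lymph node (95% interval -0.63 to 0.42) and -0.050 in spleen (-0.57 to 0.48). For Kmo in spleen, where its signal lies, it was 0.16 (95% interval -0.65 to 0.96), an interval that spans both directions. Ido1 was at -0.011 in lymph node (95% interval -0.40 to 0.38) and at 0.25 in spleen (-0.14 to 0.64). In the 10 lists of related genes, 0 were called between the labels in either tissue.

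**Figure D4:**
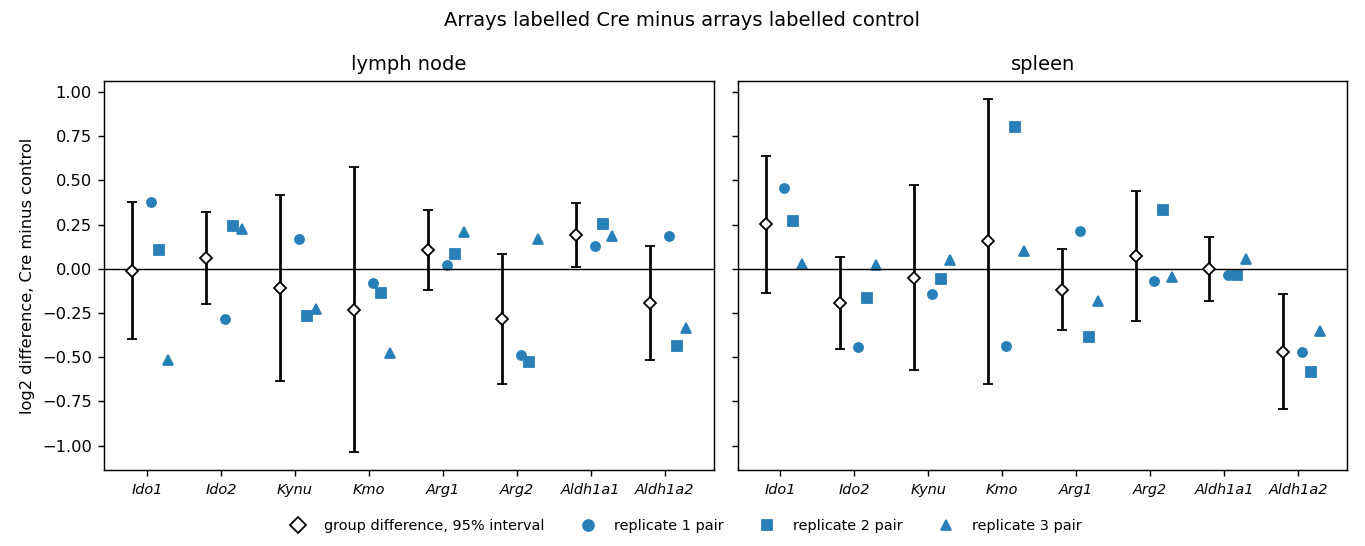
Log2 difference of each measured enzyme gene between the labels (Cre minus control), for lymph node and spleen cells, with the 95% interval from limma (diamonds, n = 3 arrays per group) and the difference of each pair of arrays with the same replicate number (blue points). Aldh1a2 in spleen lies at -0.47 with all 3 pairs below 0, and the Kmo interval in spleen reaches from -0.65 to 0.96.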

How the data were processed

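Per the labels, little RNA was on hand (nanograms or less), and the WT Pico kit was used to make labelled cDNA. The deposited values are intensities on a linear scale, 1 per probe set and array, which the authors made in Affymetrix Expression Console by RMA (per the submitters' processing notes; no versions are given). RMA corrects background, normalises between arrays and summarises probes, so differences in total RNA between groups are not kept. Of 28853 probe sets, the platform annotation (dated 2016) listed 23410. A single symbol was carried by 21789, while 1621 carried several and were left out. Of the single-symbol probe sets, 21698 were matched to RefSeq by Entrez number and took the symbol given there. The brightest probe set stood for each of 999 genes with several, which left 19938 genes.

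Log2 values of the 12 arrays entered a limma fit (version 3.58.1, in R 4.3.3 with the package data.table, version 1.17.8) with 4 group means, eBayes with a trend and Benjamini-Hochberg adjustment in each of 6 comparisons. The fit was tested on simulated data with independent noise on each array. That test does not cover the correlation between arrays of the same replicate number given below. The members and gene lists were chosen with earlier results of these data known. Named genes were the 9 members, Cd40 and Xcr1, and the 3 genes most like each called member. From each list other than markers, up to 4 genes per direction called in both tissue comparisons with the largest mean difference were named. From the marker lists, some but not all of the called or bright genes were named. Deviations from group means correlated at r of 0.293 to 0.729 between arrays of the same replicate number (18 pairs), against a median of -0.45 and a highest r of 0.557 for different numbers (36 pairs). By this check arrays of the same number tended to vary together, but the ranges overlap. Deviations sum to 0 within a group, so the negative values for different numbers are not separate evidence. The printed fits are without the block, which was run as an alternative. The other alternatives were array weights, quantile normalisation, no trend, a filter on dim genes, the mean of probe sets, the compared groups alone and left-out arrays. Plots were drawn with matplotlib 3.10.9 (Python 3.11.15).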

Additional observations from a re-analysis of the deposited data

How the results depend on the processing

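Kmo and Arg2 kept their tissue calls under all alternatives and left-out arrays, and adding the replicate block changed no call (6 enzymes on Cre and 3 on control arrays, 0 between labels; Aldh1a2 in spleen had an unadjusted limma p of 0.00396 with the block), while the genes called over all genes came to 8170 on Cre, against 5648, and 7178 on control, against 5207. Leaving out arrays gave 2 to 6 called enzymes on Cre arrays (2 without replicate 3 and 3 without replicate 2 in all groups) and 2 to 4 on control arrays, with 0 between labels and 0 for the difference of the label effect. Array weights gave 5 on control arrays, adding Ido1 (limma adjusted p = 0.0384) and Aldh1a2 (0.00668), and added Arg1 on Cre arrays (0.0329). Over all genes they called 8933 on Cre and 9020 on control arrays, and 51 between labels in spleen, 2 in lymph node and 3 for the difference of the label effect, against 0 each; left-out arrays gave 3081 to 7684 on Cre and 2865 to 6906 on control arrays. The Cre tissue call of Aldh1a2 was lost with no trend (limma adjusted p = 0.0508), with quantile normalisation (0.123) and without replicate 2 (0.275) or 3 (0.167); of single arrays, it held only without lymph node control replicate 1 or 3. Label differences near 0 changed sign: with array weights Kynu in spleen was 0.0086, and Ido2 and Kmo averaged over tissues were 0.043 and 0.11, and with quantile normalisation Aldh1a1 in spleen was 0.047, Arg1 averaged over tissues 0.015 and the Kynu difference between tissues 0.028. With arrays left out, the log2 ranges that crossed 0 were, lymph node minus spleen on control arrays, -0.080 to 0.029 for Aldh1a1 and -0.19 to 0.068 for Arg1. Cre minus control in lymph node they were -0.23 to 0.24 for Ido1, -0.031 to 0.23 for Ido2 and -0.34 to 0.033 for Kynu. In spleen they were -0.044 to 0.019 for Aldh1a1, -0.28 to 0.018 for Arg1, -0.058 to 0.21 for Arg2, -0.22 to 0.73 for Kmo and -0.24 to 0.18 for Kynu. Averaged over tissues they were -0.069 to 0.067 for Arg1, -0.028 to 0.30 for Ido1, -0.16 to 0.081 for Ido2, -0.22 to 0.25 for Kmo and -0.19 to 0.037 for Kynu, and -0.29 to 0.13 for the Kynu difference between tissues. The cause of these changes was not tested. Arg1 and Aldh1a1 lay below the olfactory level, a reference added after the data were seen, so the arrays show little about them.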
